A study of Mus musculus with 74 samples.

Results

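The epithelium of the hindstomach, the glandular part of the stomach in mice, was compared with the epithelium of the small intestine in wild-type mouse embryos at E16, embryonic day 16, by RNA sequencing. The comparison took the 4 libraries, of the 74 samples in the series, that the labels assign to these organs at this stage, with 2 libraries for each organ. All 4 came from CD1 mice of wild-type genotype that had received no treatment, and neither group carried a deletion or a transgene. The test borrowed its estimate of spread from 27 embryonic libraries, among them 7 Cdx2-/- libraries of small intestine on a B6;129 mixed background (Cdx2f/f with Shh-Cre, deleted at E10, or with Villin-Cre, deleted at E13 or E15), which stand in no comparison here. Tissue had been dissociated with trypsin and sorted by flow cytometry for Epcam, a surface protein of epithelial cells, and total RNA had been amplified with the SMARTer v4 kit, which starts from full-length cDNA and does not mark the strand. Whether the 2 libraries of an organ came from separate litters is not given in the sources used here, so p-values measure the spread between these samples, which may be technical.

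The embryonic gut tube starts as one sheet of endoderm that is divided into organs along its length. The HMG-box factor Sox2 marks the foregut, including the stomach, and the homeobox factor Cdx2 marks the intestine, where it is needed for intestinal identity. The glandular stomach later holds pit and neck cells that secrete mucus, parietal cells that secrete acid and chief cells that secrete pepsinogen. The fetal small intestine forms villi late in gestation, and their enterocytes carry a brush border with digestive enzymes and transporters and load dietary fat into lipoproteins.

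Each of the 4 libraries held between 16685602 and 18956478 counted reads. Values are given as CPM, read counts scaled to the normalized library size, hindstomach first, and differences as the log2 fold change of hindstomach over small intestine ± its standard error. Because CPM are not divided by gene length, they compare libraries within a gene and not genes with each other. A gene was called where edgeR's quasi-likelihood test gave a Benjamini-Hochberg adjusted p under 0.05 and the log2 fold change was at least 1 in size. Across genes, Spearman's rho was 0.9886 between the hindstomach libraries, 0.9851 between the intestinal libraries and between 0.8778 and 0.8819 across organs. In bulk RNA, fewer cells of a type and less RNA per cell cannot be told apart.

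The sorted cells were checked against markers of the label and of other tissues. All 8 epithelial markers were detected in every library and took 0.919% and 0.881% of the hindstomach counts and 1.08% and 1.07% of the intestinal counts. Of the 8, Epcam, Cldn4 and Cldn7 were called lower in hindstomach (37.5%, where 8.10% of all tested genes were called lower) and none higher by edgeR or DESeq2 (1 at an unadjusted p under 0.05). Epcam itself, on which the cells were sorted, was at 421 and 400.4 CPM in hindstomach and 1284 and 1291 CPM in small intestine (-1.65 ± 0.13). Markers of mesenchyme and smooth muscle took 0.944% and 0.988% of the hindstomach counts against 0.171% and 0.189% of the intestinal counts, and 11 of 16 were called higher in hindstomach, where 17.5% of all tested genes were called higher. Acta2, smooth muscle actin, was at 743 and 784 CPM in hindstomach and 91.4 and 105 CPM in small intestine, and Col1a1, a collagen of connective tissue, was at 1678 and 1665 CPM and 326 and 288 CPM.

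Markers of several other cell types were called higher in hindstomach too, where 17.5% of all tested genes were called higher and 8.10% lower. All 7 markers of enteric neurons and glia were called higher in hindstomach, with a summed share of 0.0855% and 0.0848% against 0.00598% and 0.00722%, although the count fell to as few as 2 with one of the intestinal libraries left out. The immune list held 0.125% and 0.147% of the hindstomach counts against 0.043% and 0.0426%, with 3 of 10 markers called higher, and 1 of 10 when any one of the 4 libraries was left out. Blood markers held 0.129% and 0.181% against 0.0199% and 0.0206%, with 5 of 5 tested markers called higher, and 2 or 3 without hindstomach replicate 2 or either intestinal library, while 6 globin genes of the list were listed at 0 in all 4 libraries. No endothelial marker of 6 was called by edgeR or DESeq2 (1 was higher at an unadjusted p under 0.05), at shares of 0.0144% and 0.0212% against 0.00434% and 0.00537%. Of 4 mesothelial markers, 2 were called higher, 1 without intestinal replicate 1 and 3 without intestinal replicate 2. Liver markers went the other way, with 3 of 8 called lower and shares of 0.0181% and 0.0186% in hindstomach against 0.0411% and 0.0364%. No mesenchymal, neural, immune or endothelial marker was at 0 in either hindstomach library. The part of these cells in the gene groups that follow was not tested.

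**Figure D1:**
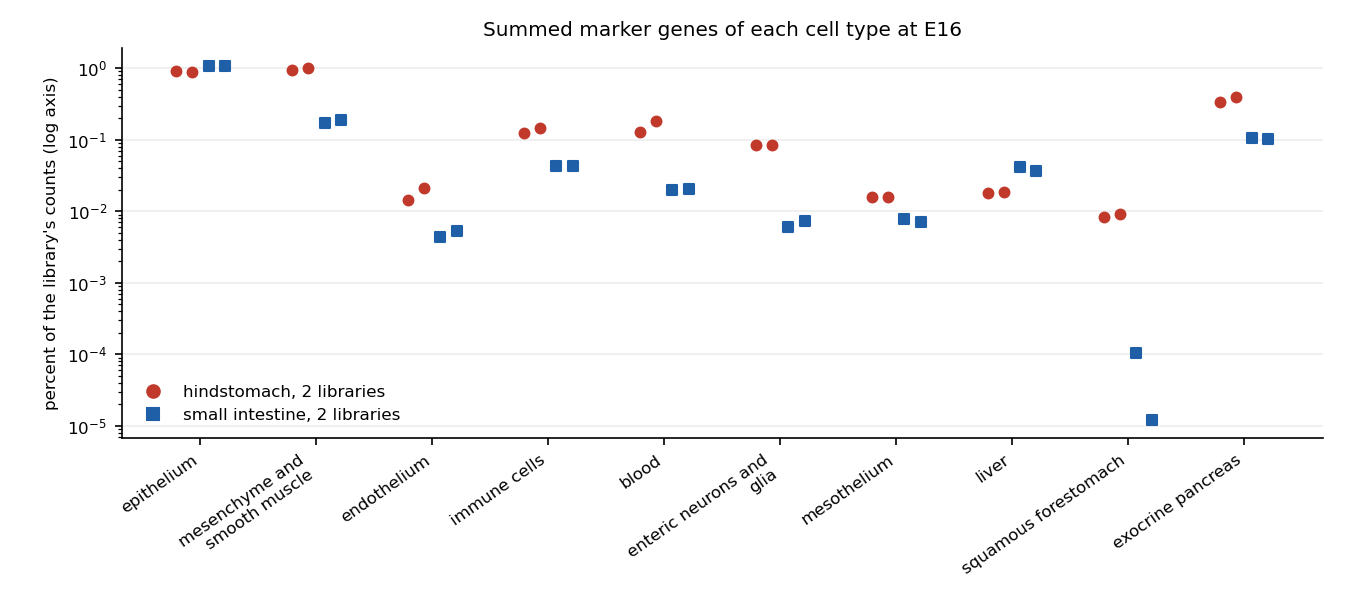
Percent of a library's counts that fell in each marker list (logarithmic vertical axis), with circles for the hindstomach libraries and squares for the small intestine libraries. The 2 libraries of an organ lie close together for most lists, and mesenchyme lies near 0.944% and 0.988% in hindstomach against 0.171% and 0.189% in small intestine.

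Of 17239 genes tested, 4422 were called, which is 25.7%. Higher in hindstomach were 3025 genes (17.5%) and lower were 1397 (8.10%), and the median log2 fold change over all tested genes was 0.18. The shares differed with abundance. Among the most abundant genes, with an average log2 CPM above 7, 5.21% were called higher and 19.4% lower in hindstomach, whereas between 0 and 2 the shares were 30.2% and 4.83%. Among the genes called higher, 351 were at 0 in both intestinal libraries, and among those called lower, 83 were at 0 in both hindstomach libraries. With a gene at 0 in every library of one organ, a lower bound of the fold was computed against a floor of 3 counts per library, and the fitted log2 fold change is then no bound. These bounds and the counting intervals given for genes with 1 to 3 counts cover counting error only.

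**Figure D2:**
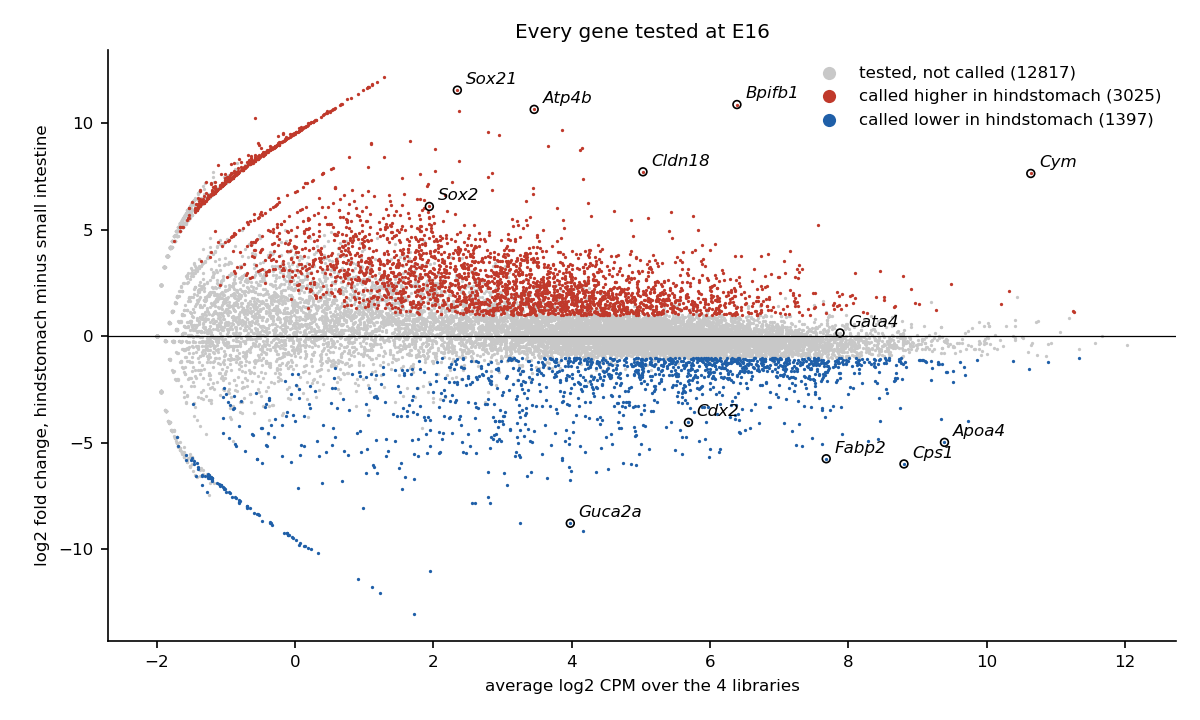
Log2 fold change, hindstomach over small intestine, against average log2 CPM for the 17239 genes tested, with 12817 genes not called in grey, 3025 called higher and 1397 called lower in colour, and 12 genes labelled. The genes called higher lie mostly at low and middle abundance and the genes called lower reach the high end.

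The master regulators Cdx2 and Sox2 differed in opposite directions. Cdx2 was at 12.1 and 13.1 CPM in the hindstomach libraries and at 196 and 218 CPM in the intestinal libraries, a log2 fold change of -4.04 ± 0.32 (adjusted p = 2.8e-08). Sox2 was at 32.4 and 25.1 CPM in hindstomach and at 0.805 and 0 CPM in small intestine, a log2 fold change of 6.09 ± 0.62 (adjusted p = 7.5e-07). The organs did not overlap for either gene, as for 12833 of the 17239 tested genes, called or not. In the E16 forestomach, the squamous upper stomach, Sox2 was not called against hindstomach with 41.4 and 35.4 CPM, while Cdx2 was at 0.463 and 0 CPM there (log2 fold change of hindstomach over forestomach 5.74 ± 0.66). Forestomach values are set beside hindstomach values as levels of single genes and shares of marker lists, and that comparison uses the same hindstomach libraries. In it 20.1% of tested genes were called, 13.8% higher in hindstomach and 6.27% lower.

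Of 20 gastric regulators tested, 13 were called higher in hindstomach (65% of the list, where 17.5% of all genes were) and 1 lower (5% against 8.10%), with a median log2 fold change of 2.58. Sox21, a close relative of Sox2, was at 95.7 and 92.8 CPM in hindstomach and 0.0503 and 0 CPM in small intestine, where it rested on 1 read, a ratio of 3600 with a 95% counting interval from 646 to 142200. Irx5, an Iroquois homeobox gene, was at 4.35 and 3.13 CPM in hindstomach and at 0 in both intestinal libraries, at least 23.8-fold higher. Foxq1, a forkhead factor needed for mucin production in stomach surface cells, was at 511 and 487 CPM against 48.7 and 48.4 CPM (3.36 ± 0.21, adjusted p = 8.3e-10). Esrrg, a nuclear receptor active in acid-secreting cells, was at 94 and 89.2 CPM against 16.1 and 9.77 CPM (2.82 ± 0.23), and Foxa1, a pioneer factor of all gut endoderm, at 272 and 257 CPM against 82.3 and 84 CPM (1.67 ± 0.16).

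Some members are also known from other tissues. Trp63, a basal squamous factor, was at 3.06 and 1.91 CPM in hindstomach and 0 in both intestinal libraries, at least 15.8-fold higher, but at 77.3 and 86.7 CPM in forestomach. Barx1, which acts in stomach mesenchyme and stands in the mesenchymal marker list too, was at 96 and 124 CPM against 0.553 and 1.2 CPM (6.98 ± 0.63), and at 377 and 395 CPM in forestomach, where mesenchymal markers took 2.84% and 3.37% of counts. Gata4 and Gata6, zinc finger factors of stomach and proximal intestine alike, were not called. Gata4 was at 248 and 248 CPM and 215 and 230.1 CPM (0.16 ± 0.21) and Gata6 at 84.9 and 74.6 CPM and 128 and 141 CPM (-0.75 ± 0.19). Pdx1, which marks antrum and duodenum, was not called, at 7.54 and 9.27 CPM and 4.23 and 6.0 CPM.

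None of 23 intestinal regulators was called higher in hindstomach by edgeR or DESeq2 (2 were higher at an unadjusted p under 0.05). Called lower were 14, which is 60.9% of the list, against 8.10% of all genes, with a median of -1.69. Cdx1, the paralog of Cdx2, was at 9.54 and 10.9 CPM in hindstomach and 324 and 299 CPM in small intestine (-4.93 ± 0.61, adjusted p = 4.8e-06). Creb3l3, a membrane-bound activator of lipid genes, was at 11.4 and 11.1 CPM against 319.9 and 321 CPM (-4.83 ± 0.53), and Nr1h4, the bile acid receptor, at 11.1 and 10.2 CPM against 176 and 169 CPM (-4.02 ± 0.33). These 3 were lower in both hindstomach libraries without being absent. The nuclear receptor Hnf4a differed less, with 125 and 103 CPM against 389 and 349 CPM (-1.69 ± 0.35), than its paralog Hnf4g, with 19.9 and 25.4 CPM against 296 and 293 CPM (-3.70 ± 0.34), though the difference between the paralogs was not tested. Isx, an intestine-specific homeobox gene, was at 10 and 11.2 CPM against 118 and 124 CPM, and Prdm1, a repressor of the adult enterocyte program in the fetal gut, at 8.79 and 9.79 CPM against 89.4 and 70.5 CPM (-3.10 ± 0.24). The most abundant members that were not called were Elf3, at 502 and 496 CPM and 401 and 404 CPM, and Klf5, at 348 and 291 CPM and 359.5 and 348 CPM, both general factors of gut epithelium.

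**Figure D3:**
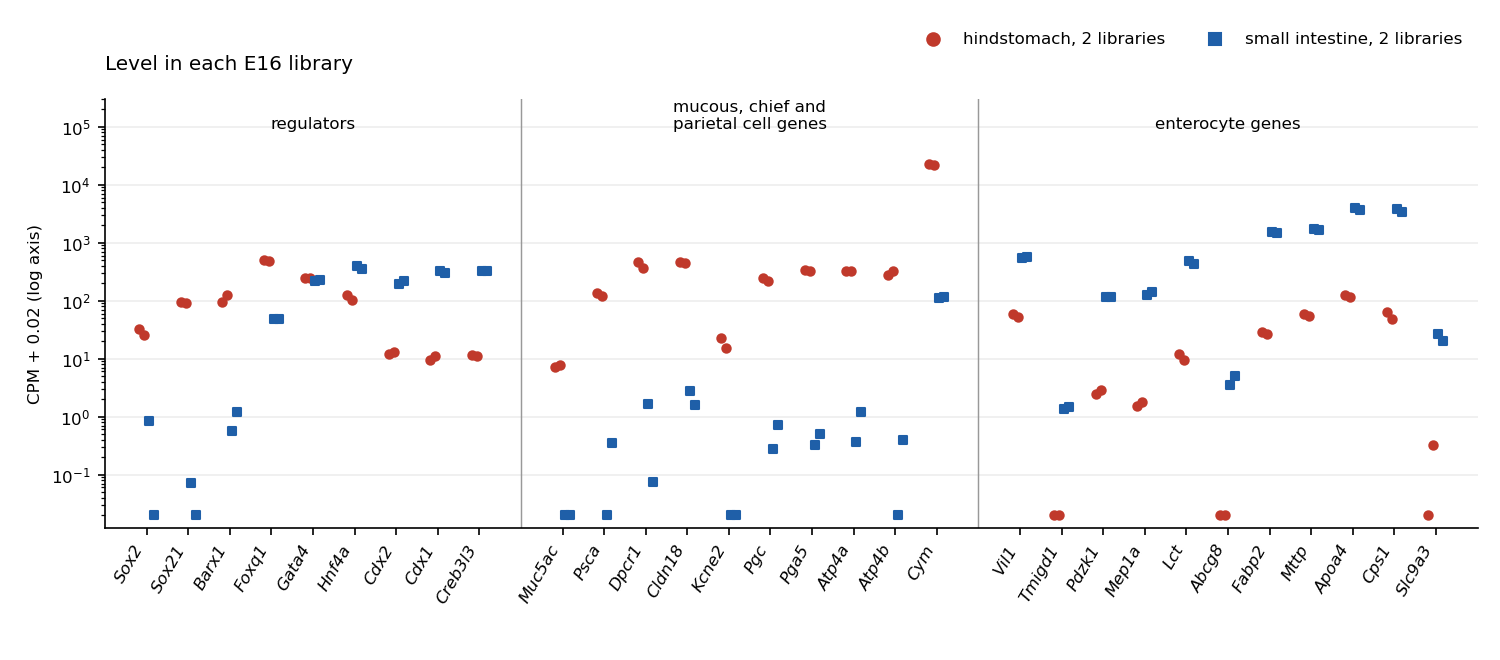
CPM plus 0.02 per library on a logarithmic axis for regulators, gastric genes and intestinal genes, with circles for the 2 hindstomach libraries and squares for the 2 small intestine libraries. Gata4 lies nearly level between the organs, gastric genes such as Cym lie high in hindstomach and intestinal genes such as Fabp2 lie high in small intestine.

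The promoters of the genes that define each organ were read from RefSeq (GRCm38.p6, 250 bases before to 50 bases after the start, 1 entry per gene) and searched on both strands for the letters of 6 factor motifs. CCATAAA (Cdx) stood in 1.95% of the promoters of genes called higher in hindstomach, 2.19% of those of genes called lower, 1.84% of those of all tested genes and 2.76% of all 27025 promoters. In the same order, the shares were 0.232%, 1.53%, 0.504% and 0.477% for CAAAGTCCA (Hnf4) and 0.557%, 2.19%, 0.645% and 0.836% for GTTAATNAT (Hnf1). The letters of the Gata motif, AGATAA, were found in 5.85%, 10.2%, 7.28% and 11.4%. CATTGTT (Sox) was found in 2.04%, 2.19%, 2.13% and 3.87%, and TGTTTAC (Foxa) in 2.69%, 3.44%, 2.62% and 3.55%. On the gene's own strand alone, genes called lower had a share below that of tested genes for Cdx (0.954% against 1.09%) and Foxa (1.05% against 1.3%), the reverse of the order on both strands. No motif's letters lie whole within another's, no test was made of these shares, a match describes letters and not a bound site, and absence says only that these letters are not in the window. The Hnf4 and Hnf1 letters were rare in number, with 5 and 16 promoters for Hnf4 and 12 and 23 for Hnf1 among 2153 genes called higher and 1048 called lower that had a promoter entry.

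Shown first, with motif letters in capitals, are the promoters of the member with the largest log2 fold change in 6 lists among those with an entry, which contrast gastric and intestinal genes. Kcne2, Abcg8 and Tmigd1 were at 0 in both libraries of one organ, so their rank rests on a fitted value that is no bound, and by their bounds, given below, they come after Pga5, Fabp2 and Pdzk1 of their lists. RefSeq lists 1 start for Sox21 and 2 for the other 5, of which 1 is shown. Sox21 lies at chr14:118236981-118237280 on the minus strand and Kcne2, a potassium channel subunit of acid secretion, at chr16:92292139-92292438 on the plus strand, and neither holds a motif. Cldn18, a tight junction protein of the stomach, lies at chr9:99717218-99717517 on the minus strand, with Gata letters 146 and 131 bases before the start. Creb3l3 lies at chr10:81092542-81092841 on the minus strand with Gata letters 138 bases before the start. Abcg8, a sterol exporter of enterocytes, lies at chr17:84682871-84683170 on the plus strand with Gata letters 127, 93 and 63 bases before the start. Tmigd1, an adhesion protein of the brush border, lies at chr11:76890870-76891169 on the plus strand with Sox letters 141 bases before the start.
Sox21: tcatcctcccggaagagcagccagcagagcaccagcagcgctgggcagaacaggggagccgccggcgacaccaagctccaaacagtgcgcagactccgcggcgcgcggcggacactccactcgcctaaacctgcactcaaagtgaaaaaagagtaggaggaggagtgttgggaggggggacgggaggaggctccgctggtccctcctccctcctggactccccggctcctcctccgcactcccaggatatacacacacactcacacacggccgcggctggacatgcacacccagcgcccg
Kcne2: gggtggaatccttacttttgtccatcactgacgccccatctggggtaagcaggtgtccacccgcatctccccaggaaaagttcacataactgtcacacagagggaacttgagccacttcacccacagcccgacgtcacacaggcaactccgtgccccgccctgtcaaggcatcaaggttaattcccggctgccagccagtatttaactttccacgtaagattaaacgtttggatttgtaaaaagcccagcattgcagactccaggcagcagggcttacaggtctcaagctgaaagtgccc
Cldn18: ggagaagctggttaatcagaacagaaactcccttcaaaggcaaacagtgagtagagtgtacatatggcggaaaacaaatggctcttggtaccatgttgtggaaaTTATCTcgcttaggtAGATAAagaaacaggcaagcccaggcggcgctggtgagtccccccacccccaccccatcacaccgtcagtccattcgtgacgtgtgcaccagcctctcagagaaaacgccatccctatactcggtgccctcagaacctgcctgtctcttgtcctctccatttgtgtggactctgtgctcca
Creb3l3: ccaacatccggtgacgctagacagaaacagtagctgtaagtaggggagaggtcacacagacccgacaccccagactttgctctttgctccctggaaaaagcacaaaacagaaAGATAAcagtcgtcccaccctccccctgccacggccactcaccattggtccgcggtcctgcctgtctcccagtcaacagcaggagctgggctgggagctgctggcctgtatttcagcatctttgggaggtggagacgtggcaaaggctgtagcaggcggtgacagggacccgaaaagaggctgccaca
Abcg8: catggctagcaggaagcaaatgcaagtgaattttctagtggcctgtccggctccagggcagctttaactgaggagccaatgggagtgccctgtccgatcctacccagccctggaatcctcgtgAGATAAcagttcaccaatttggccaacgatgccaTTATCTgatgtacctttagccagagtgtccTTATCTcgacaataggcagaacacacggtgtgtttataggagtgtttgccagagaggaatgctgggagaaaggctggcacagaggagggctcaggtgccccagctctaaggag
Tmigd1: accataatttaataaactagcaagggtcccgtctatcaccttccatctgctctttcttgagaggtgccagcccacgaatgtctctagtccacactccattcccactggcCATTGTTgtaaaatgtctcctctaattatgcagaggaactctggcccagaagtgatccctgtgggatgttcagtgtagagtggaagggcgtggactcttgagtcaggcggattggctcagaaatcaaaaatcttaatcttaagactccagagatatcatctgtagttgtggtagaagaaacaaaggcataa

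Among intestinal genes of the lists, the rarer Hnf4 and Hnf1 letters lay near the start in several promoters, and 4 are shown to give their context, chosen after the matches were seen. Alpi, intestinal alkaline phosphatase (chr1:87101557-87101856, minus strand), has Hnf4 letters 19 bases before the start, and Slc3a1, a subunit of the cystine carrier (chr17:85028097-85028396, plus strand), has them 39 bases before it, with Gata letters 119 bases before it. Npc1l1, the cholesterol importer (chr11:6230196-6230495, minus strand), has Hnf1 letters 43 bases before the start, and Slc26a3, a chloride and bicarbonate exchanger (chr12:31437969-31438268, plus strand), has them 84 bases before it, with Sox letters 107 bases before it. Hnf4 letters also stood in the promoter of Pdzk1 and Hnf1 letters in those of Cdhr2 and Slc10a2. The 7 were taken from genes called lower in hindstomach, with the xenobiotic metabolism list left out. Treh (Hnf4) and Nr5a2 (Hnf1), also of the intestinal lists, hold these letters and were not called, and Vsig1 of the gastric mucous list (Hnf1) was called higher. In the other lists, Cela2a, Cyp2c65 and Cyp3a11 (Hnf4) and Rfx6 (Hnf1) hold them and were not called. Ugt1a1 and Sult1d1 (Hnf1), of xenobiotic metabolism, were called lower.
Alpi: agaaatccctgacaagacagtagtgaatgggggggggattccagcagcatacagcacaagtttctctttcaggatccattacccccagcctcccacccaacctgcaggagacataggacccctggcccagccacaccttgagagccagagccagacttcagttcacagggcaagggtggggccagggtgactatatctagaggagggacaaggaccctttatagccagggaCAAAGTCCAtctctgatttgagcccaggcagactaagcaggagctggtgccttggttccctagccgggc
Slc3a1: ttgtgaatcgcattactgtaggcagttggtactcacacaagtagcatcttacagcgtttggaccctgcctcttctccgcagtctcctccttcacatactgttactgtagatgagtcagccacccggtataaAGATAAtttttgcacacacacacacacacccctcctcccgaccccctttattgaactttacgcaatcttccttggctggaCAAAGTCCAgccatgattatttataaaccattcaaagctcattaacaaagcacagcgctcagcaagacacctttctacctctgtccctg
Npc1l1: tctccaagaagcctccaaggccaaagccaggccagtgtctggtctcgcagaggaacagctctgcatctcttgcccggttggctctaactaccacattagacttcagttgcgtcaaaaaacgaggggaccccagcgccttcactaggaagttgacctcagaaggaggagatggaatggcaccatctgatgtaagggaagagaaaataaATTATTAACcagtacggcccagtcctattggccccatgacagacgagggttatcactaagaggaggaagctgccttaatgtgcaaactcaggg
Slc26a3: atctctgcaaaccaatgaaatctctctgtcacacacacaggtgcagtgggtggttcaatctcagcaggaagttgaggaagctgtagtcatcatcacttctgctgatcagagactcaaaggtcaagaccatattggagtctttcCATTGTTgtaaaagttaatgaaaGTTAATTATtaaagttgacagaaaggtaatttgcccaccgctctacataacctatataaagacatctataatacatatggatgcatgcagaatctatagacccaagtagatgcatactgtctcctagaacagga

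Most gastric mucous cell genes were higher in hindstomach. Of 20 tested, 15 were called higher (75%, against 17.5% of all genes) and 1 lower (5%, against 8.10%). The median log2 fold change was 5.34, or 5.02 with genes at 0 in an organ set to their bound. Muc5ac, the surface mucin, was at 7.01 and 7.61 CPM in hindstomach and at 0 in both intestinal libraries, at least 46.5-fold higher. Psca, a lipid-anchored surface protein, was at 133 and 118 CPM against 0 and 0.328 CPM (9.60 ± 0.78), and Dpcr1, a mucin-like membrane protein, at 455 and 371 CPM against 1.66 and 0.0546 CPM (8.86 ± 0.66). The intestinal Dpcr1 reads came mostly from replicate 1. Cldn18, whose promoter is given above, was at 469 and 446 CPM against 2.72 and 1.58 CPM (7.72 ± 0.40, adjusted p = 2.1e-10).

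Mucins and other products of pit and neck cells shared this direction. Muc1, a membrane mucin, was at 335 and 297 CPM against 9.61 and 10.1 CPM (5.00 ± 0.28), Tff2, a trefoil peptide of neck cells, at 57.5 and 53.5 CPM against 1.91 and 2.18 CPM (4.76 ± 0.46), and the gland mucin Muc6 at 30.2 and 30.9 CPM against 0.755 and 0.382 CPM (5.73 ± 0.69). Gkn1, a gastrokine of pit cells, reached only 12.3 and 9.79 CPM in hindstomach at this stage, against 0.302 and 0 CPM. Capn9 was the 1 member called lower, at 0.932 and 3.74 CPM against 8.45 and 9.66 CPM (-1.95 ± 0.74, adjusted p = 0.044), a call lost with hindstomach replicate 1 or either intestinal library left out. Gcnt3, a mucin glycosyltransferase, was not called, at 43.5 and 49.3 CPM against 34.6 and 30.8 CPM. The forestomach set 2 of these genes apart: Cldn18 was at 10.5 and 12.1 CPM there, far below hindstomach, whereas Psca was at 710 and 733 CPM, above it (-2.52 ± 0.45).

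Genes of acid and pepsinogen secretion were already present in hindstomach at E16. Of 17 tested chief and parietal cell genes, 12 were called higher (70.6%, against 17.5% of all genes) and 1 lower (5.88%, against 8.10%). The median was 7.24, or 4.65 with bounds. Both subunits of the gastric proton pump were called higher: Atp4a at 328 and 324 CPM against 0.352 and 1.2 CPM (8.73 ± 0.77, adjusted p = 6.5e-08) and Atp4b at 282 and 326 CPM against 0 and 0.382 CPM (10.65 ± 0.65). Kcne2 was at 22.3 and 15.2 CPM in hindstomach and 0 in both intestinal libraries, at least 119-fold higher. The pepsinogen genes were called higher too, Pga5 at 337 and 321 CPM against 0.302 and 0.491 CPM (9.69 ± 0.65) and Pgc at 247 and 217 CPM against 0.252 and 0.71 CPM (8.92 ± 0.48). Gif, intrinsic factor for vitamin B12 uptake, was at 144 and 153 CPM against 0.403 and 0 CPM (9.44 ± 0.78).

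Not every member of this list was called higher. Kcnq1, the channel partner of Kcne2, was not called, at 75.5 and 55.2 CPM against 29.8 and 30.7 CPM (1.11 ± 0.48), and the anion exchanger Slc4a2 was at 79.2 and 88.6 CPM against 143 and 123 CPM (-0.66 ± 0.16). Clic6, a chloride channel family member, was the 1 called lower, at 152 and 163 CPM against 376 and 355 CPM (-1.22 ± 0.17). Chia1, a chitinase, was called higher on 1 library only, at 0.799 and 0 CPM in hindstomach and 0 in both intestinal libraries, so the organs overlapped for it. Outside the lists, Cym, the milk-clotting protease chymosin, was at 23160 and 21770 CPM against 109.7 and 115 CPM (7.64 ± 0.37, adjusted p = 4.4e-11) and took 2.83% and 2.64% of the hindstomach counts.

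Other genes outside the lists had the largest log2 fold changes at an average log2 CPM of at least 2 or of at least 7. Bpifb1, a secreted lipid-binding protein of mucosal surfaces, was at 3554 and 3270 CPM against 1.81 and 1.8 CPM (10.88 ± 0.32), Mal, a protein of apical membrane sorting, at 94.9 and 83.1 CPM against 0.0503 and 0.0546 CPM, and Anxa10, an annexin, at 233 and 223 CPM against 2.06 and 0.601 CPM (7.39 ± 0.37). Adcyap1r1, the receptor of the neuropeptide PACAP, was at 41 and 42.4 CPM against 0 and 0.382 CPM, and Sptssb, a subunit of the enzyme that starts sphingolipid synthesis, at 92.1 and 79 CPM against 0 and 0.983 CPM. Mgp, a matrix protein, at 29.7 and 39.3 CPM against 0.352 and 0.328 CPM, and Sfrp2, a secreted Wnt modulator, at 83.3 and 82 CPM against 0.956 and 1.04 CPM, are known from connective tissue, as is Dlk1, at 557 and 581 CPM against 36.4 and 34.7 CPM (4.00 ± 0.23). The mesenchymal marker share was higher in the same libraries, and its part in these differences was not tested. Capn6, Agtr2 (not called by DESeq2), Clu, Nnat and Itm2a were also among them, with Clu, the chaperone clusterin, at 1142 and 1159 CPM against 36.3 and 25.7 CPM (5.21 ± 0.29).

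Tuft cells, chemosensory cells of gut epithelium, had 5 of 21 tested genes called higher in hindstomach (23.8%, against 17.5% of all genes) and none called lower by edgeR or DESeq2 (none at an unadjusted p under 0.05 either), with a median of 2.16. The count was 3 with any one of the 4 libraries left out. Trpm5, the cation channel of taste transduction, was at 16.5 and 16.6 CPM in hindstomach and 0 in both intestinal libraries, at least 105-fold higher, and Dclk1, a kinase used as the tuft marker and also made in neurons, was at 56.4 and 40.7 CPM against 2.21 and 3.77 CPM (4.02 ± 0.77). Bmx, a kinase, differed widely between its hindstomach libraries, at 0.532 and 4.61 CPM, was at 0 in both intestinal libraries and lost its call without hindstomach replicate 2 or either intestinal one. The tuft cell master factor Pou2f3 was not called, at 1.69 and 1.09 CPM against 0.302 and 0.273 CPM (2.25 ± 1.38, adjusted p = 0.21).

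Endocrine genes were mixed. Of 26 regulators and granins, 7 were called higher (26.9%, against 17.5% of all genes) and 2 lower (7.69%, near 8.10%), with 4 called higher without either intestinal library and 1 called lower without any one of the 4. Pcsk2, a prohormone convertase, was at 11.4 and 12.2 CPM against 0.604 and 0.0546 CPM (5.12 ± 1.43) and Isl1, a homeobox factor of endocrine cells and neurons, at 41.3 and 42 CPM against 5.23 and 5.19 CPM (3.00 ± 0.81). The call was lost without intestinal replicate 2 for both and without intestinal replicate 1 for Isl1. Neurog3, the factor that commits endocrine cells, was not called, at 7.05 and 5.87 CPM against 11.3 and 7.04 CPM. Chgb, a granin, was called lower, at 132 and 76 CPM against 337 and 266 CPM (-1.54 ± 0.56), a call lost with any one library left out or in DESeq2. Mlxipl, a glucose-responsive factor, was at 5.24 and 3.35 CPM against 23.9 and 17.7 CPM (-2.28 ± 0.24).

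Hormone genes were called in both directions. Of 15 tested, 4 were called higher (26.7%, against 17.5% of all genes) and 4 lower (26.7%, against 8.10%), which became 2 and 2 without hindstomach replicate 2. Gast, gastrin of antral G cells, was at 26 and 21.3 CPM in hindstomach and 0.252 and 0.273 CPM in small intestine (6.47 ± 1.13). The 4 called lower in hindstomach are hormones of the small intestine: Gip at 0.532 and 0.87 CPM against 32.3 and 29 CPM (-5.44 ± 0.60), Sct, secretin, at 25.9 and 13.1 CPM against 206 and 186 CPM (-3.33 ± 0.86), Cck at 19.9 and 20 CPM against 90 and 103 CPM (-2.27 ± 0.63) and Nts, neurotensin, at 0.399 and 0.304 CPM against 10.7 and 9.39 CPM. The call was lost without either hindstomach library for Cck and without hindstomach replicate 2 for Sct. Ghrl, ghrelin, was not called, at 39.4 and 55.5 CPM against 39.6 and 61.4 CPM (-0.09 ± 0.54), and neither was Sst, somatostatin, at 67.4 and 49.1 CPM against 28.3 and 29.6 CPM. Vip, at 118 and 119 CPM against 8.1 and 12.3 CPM, and Gal, at 38.8 and 31.7 CPM against 2.62 and 2.78 CPM, were called higher, and both are also peptides of enteric neurons, whose markers held a larger share of the hindstomach counts. Gal lost its call with any one library left out. The part of neurons in both was not tested.

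Goblet cell genes leaned to the intestine. Of 16 tested, 7 were called lower in hindstomach (43.8%, against 8.10%) and 3 higher (18.8%, against 17.5%), and 1 was called higher without an intestinal library. Muc2, the intestinal gel mucin, was at 2.35 and 3.61 CPM in hindstomach and 32 and 23.9 CPM in small intestine (-3.23 ± 0.68), Tff3 at 54.1 and 68 CPM against 649 and 609 CPM (-3.36 ± 0.28) and Muc13, a membrane mucin, at 31 and 37.1 CPM against 932 and 931 CPM (-4.77 ± 0.74). Spdef, a factor of mucous cells of both organs, was called higher, at 49.6 and 60.5 CPM against 23.7 and 23.3 CPM (1.23 ± 0.38), and Ern2, a stress sensor of mucus-secreting cells, at 93.8 and 92.7 CPM against 25.7 and 27.7 CPM (1.81 ± 0.38). Spdef lost its call without hindstomach replicate 2 or either intestinal library. Agr2, a disulfide isomerase of mucin folding, was not called, at 244 and 265 CPM against 489 and 446 CPM.

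The structural genes of the brush border were lower in hindstomach, with 15 of 21 called lower (71.4%, against 8.10% of all genes), none higher by edgeR or DESeq2, or at an unadjusted p under 0.05, and a median of -2.40. Vil1, villin, was at 58.4 and 52.9 CPM in hindstomach and 537 and 561 CPM in small intestine (-3.30 ± 0.26, adjusted p = 2.8e-08). The scaffold protein gene Pdzk1 was at 2.44 and 2.87 CPM against 115 and 117 CPM (-5.45 ± 0.35), and the motor gene Myo7b at 6.61 and 5.18 CPM against 164 and 137 CPM (-4.67 ± 0.46). Tmigd1 was at 0 in both hindstomach libraries and at 1.31 and 1.47 CPM in small intestine, at least 10.6-fold lower, a call lost with any one library left out. Ezr, ezrin, a membrane linker of many epithelia, was not called, at 698 and 613 CPM against 751 and 662 CPM (-0.11 ± 0.11).

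Digestive enzymes of the brush border were lower as well, with 18 of 24 called lower (75%, against 8.10% of all genes) and a median of -3.80. None was called higher (also none at an unadjusted p under 0.05, and 1 in DESeq2). Lct, lactase, was at 11.9 and 9.4 CPM in hindstomach and 483 and 423 CPM in small intestine (-5.41 ± 0.36, adjusted p = 3.3e-09). The meprin subunits Mep1a, at 1.51 and 1.78 CPM against 124 and 141 CPM (-6.33 ± 1.03), and Mep1b, at 0.355 and 0.217 CPM against 69.3 and 62.1 CPM (-7.82 ± 0.93), were close to 0 in hindstomach. Alpi was at 57.7 and 60.9 CPM against 676 and 615 CPM (-3.44 ± 0.54). Sis, sucrase-isomaltase, an enzyme known for its rise around weaning, was not called, at 0 and 1.26 CPM against 7.14 and 6.82 CPM (-3.45 ± 1.47, adjusted p = 0.081). Tmem27 was not called, at 5.95 and 5.7 CPM against 7.9 and 10.5 CPM.

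Most genes of lipid absorption, several of them with high CPM in small intestine, were lower in hindstomach. Of 30 tested genes, 24 were called lower in hindstomach (80%, against 8.10% of all genes) and 1 higher (3.33%, against 17.5%), or more higher without intestinal replicate 1. The median was -4.25, or -3.85 with bounds. Apoa4, an apolipoprotein of chylomicrons, was at 125 and 113 CPM in hindstomach and 3912 and 3609 CPM in small intestine (-4.98 ± 0.68, adjusted p = 1.1e-05), and Fabp2, the intestinal fatty acid binding protein, at 28.7 and 27 CPM against 1496 and 1495 CPM (-5.75 ± 0.30). Mttp, which loads lipid onto apolipoprotein B, was at 59.8 and 53.5 CPM against 1750 and 1677 CPM (-4.92 ± 0.24), and Apob at 24.8 and 26.6 CPM against 959 and 804 CPM (-5.10 ± 0.39). Hindstomach libraries held low but measurable levels of all 4. Abcg8 was at 0 in both hindstomach libraries and at 3.42 and 5.08 CPM in small intestine, at least 32.2-fold lower, and Fabp6, the ileal bile acid binding protein, was at 0 against 0.503 and 0.819 CPM, at least 5.02-fold lower, a call lost without either hindstomach library or intestinal replicate 2. Npc1l1 was at 4.26 and 3.78 CPM against 145 and 127 CPM (-5.08 ± 0.63).

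The 1 member called higher, Pnliprp2, a lipase of exocrine pancreas and fetal gut, was at 23.7 and 24.3 CPM against 5.03 and 5.51 CPM (2.19 ± 0.37). Exocrine pancreas markers held 0.34% and 0.39% of the hindstomach counts against 0.107% and 0.101%, and their part in this value was not tested. Scarb1, a lipoprotein receptor, and Cd36, a fatty acid carrier, were not called, Scarb1 at 79.4 and 68.1 CPM against 109 and 86.7 CPM and Cd36 at 21.6 and 40.7 CPM against 58.9 and 88.8 CPM.

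Nutrient transporters had the largest share called lower of the gene lists, with 26 of 30 called lower in hindstomach (86.7%, against 8.10%), none higher by edgeR or DESeq2, or at an unadjusted p under 0.05, and a median of -4.01, or -3.97 with bounds. Slc5a1, the sodium-glucose carrier, was at 20.6 and 22 CPM against 422 and 424 CPM (-4.31 ± 0.72), Slc15a1, the peptide carrier, at 0.0887 and 0.087 CPM against 5.54 and 3.66 CPM (-5.63 ± 0.91), and Slc3a1 at 9.27 and 6.0 CPM against 143 and 135 CPM (-4.19 ± 0.46). The sodium-proton exchanger Slc9a3, at 0 and 0.304 CPM against 26.4 and 19.8 CPM (-7.19 ± 0.60), and the phosphate carrier Slc34a2, at 0 and 0.827 CPM against 89.3 and 102 CPM (-7.83 ± 1.68), were each at 0 in hindstomach replicate 1. DESeq2 did not call Slc9a3. Slc13a1, a sulfate carrier, was at 0 in both hindstomach libraries and at 2.52 and 1.91 CPM in small intestine, at least 16.8-fold lower, a call lost without either hindstomach library or intestinal replicate 1. Slc46a1, the folate carrier, was not called, at 9.32 and 10.6 CPM against 9.56 and 10.4 CPM.

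Endocytosis and urea cycle genes of the fetal enterocyte had 8 of 14 members called lower (57.1%, against 8.10% of all genes) and 1 higher (7.14%, against 17.5%). Fewer were called lower without hindstomach replicate 2, and 5 in DESeq2. Cps1, the entry enzyme of the urea cycle, was at 63.6 and 48.6 CPM in hindstomach and 3789 and 3357 CPM in small intestine (-5.99 ± 0.85), and Otc, the next enzyme, at 3.02 and 4.0 CPM against 225 and 226 CPM (-6.00 ± 0.88). Cubn, at 1.24 and 1.13 CPM against 69.1 and 47.9 CPM, and Amn, at 3.68 and 3.61 CPM against 245 and 235 CPM (-6.04 ± 1.23), form one endocytic receptor. Later urea cycle enzymes were not called, with Ass1 at 66.4 and 67.9 CPM against 134 and 117 CPM (-0.90 ± 0.29) and Asl at 46.3 and 40.5 CPM against 93.1 and 79.3 CPM (-0.99 ± 0.24). Glul, glutamine synthetase, was the 1 called higher, at 47.9 and 61.2 CPM against 17.5 and 13.9 CPM (1.79 ± 0.17).

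Outside the lists, the largest differences toward the small intestine included hormones and uptake proteins. Guca2a, guanylin, was at 0.577 and 0.696 CPM in hindstomach and 297 and 266 CPM in small intestine (-8.78 ± 0.60), and its relative Guca2b, uroguanylin, at 0.932 and 0.609 CPM against 69.8 and 60.8 CPM (-6.40 ± 0.84). Mcoln3, a lysosomal channel, was at 0.355 and 0.435 CPM against 76.7 and 70.4 CPM, Folr1, a folate receptor, at 1.55 and 1.26 CPM against 141 and 160.5 CPM, and Aoc1, diamine oxidase, had a log2 fold change of -6.98 ± 0.57. Tubal3 and the inositol carrier gene Slc5a11 were also among them. Among the most abundant genes, Oat, ornithine aminotransferase, was at 209 and 221 CPM against 3328 and 3336 CPM (-3.95 ± 0.30) and Aldh1b1, a mitochondrial aldehyde dehydrogenase, at 91.9 and 85.4 CPM against 1424 and 1360 CPM (-3.97 ± 0.92). Lgals2, a galectin, and Prap1, a secreted protein of enterocytes, were lower in hindstomach by log2 fold changes of -4.10 ± 0.54 and -4.06 ± 0.30.

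**Figure D4:**
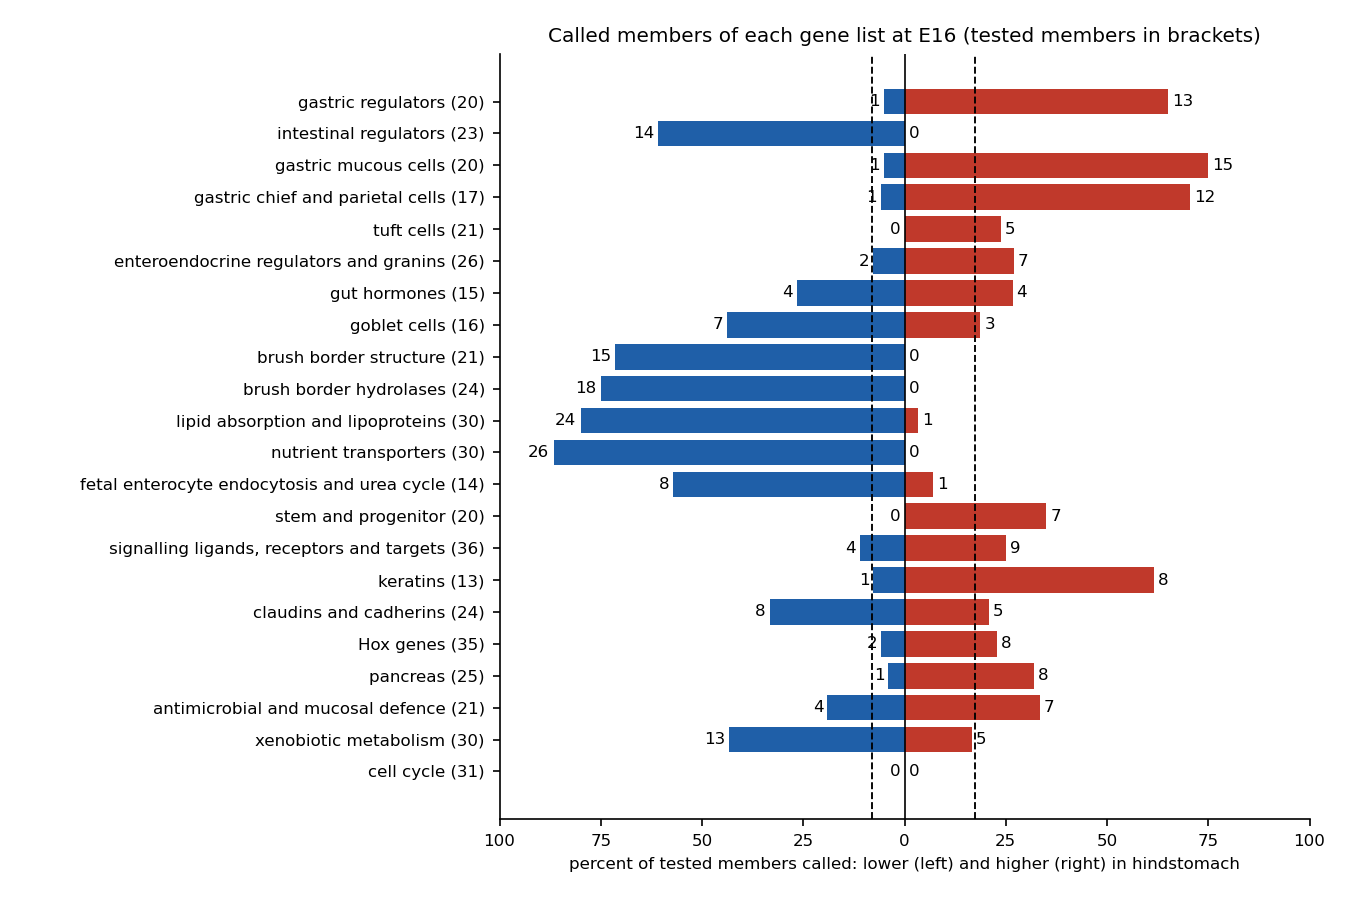
Percent of each list's tested members called higher in hindstomach (right) or lower (left), with the number of genes at each bar and dashed lines at 17.5% and 8.10%, the shares of all tested genes. The intestinal lists extend to the left, up to 26 transporters, and the gastric lists to the right.

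Stem and progenitor genes had 7 of 20 called higher in hindstomach (35%, against 17.5% of all genes) and a median of 0.80. None was called lower by edgeR or DESeq2 (1 at an unadjusted p under 0.05), against 8.10% of all genes. Rgmb, a BMP co-receptor, was at 161 and 159 CPM against 16.4 and 12.4 CPM (3.47 ± 0.17), Tnfrsf19, a Wnt target, at 21.6 and 24.2 CPM against 2.06 and 1.36 CPM (3.73 ± 0.36), and Cd24a, an abundant surface protein, at 524 and 519.8 CPM against 135 and 134 CPM (1.95 ± 0.15). Lgr5, the receptor that marks cycling stem cells, was not called, at 43 and 27.7 CPM against 37.6 and 25.3 CPM (0.17 ± 0.32), and the organs overlapped. Sox9, a progenitor factor, was called higher at 186 and 177 CPM against 93.2 and 73.3 CPM (1.12 ± 0.16), a call lost without intestinal replicate 2.

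Of 36 signalling genes, 9 were called higher (25%, against 17.5% of all genes) and 4 lower (11.1%, against 8.10%), both near the background, with a median of 0.73. Those called higher included the Wnt ligands Wnt11 at 14.9 and 12.2 CPM against 0.553 and 1.26 CPM (3.90 ± 0.47), Wnt4 at 21.8 and 21 CPM against 2.52 and 2.89 CPM (2.98 ± 0.53) and Wnt5a at 18.3 and 14.1 CPM against 1.56 and 2.67 CPM (2.94 ± 0.46). Wnt7b was at 3.33 and 0.435 CPM in hindstomach, uneven between libraries, and at 0 in both intestinal libraries, at least 12-fold higher. The epithelial hedgehog ligands Ihh, at 188 and 181 CPM against 159 and 156 CPM (0.23 ± 0.18), and Shh, at 12.7 and 13 CPM against 6.09 and 9.94 CPM (0.68 ± 0.28), were not called. Lower in hindstomach were the Notch ligand Dll1, at 11 and 11.7 CPM against 40.4 and 36.2 CPM (-1.76 ± 0.28), and Bmp7, at 42.8 and 37.2 CPM against 94.2 and 80.8 CPM (-1.13 ± 0.22). Wnt5a and Sfrp1, which was at 135 and 155 CPM against 28.6 and 28.8 CPM, are known from gut mesenchyme, and the part of the larger mesenchymal share in them was not tested.

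Keratins and junction proteins also differed between the organs. Of 13 keratins, 8 were called higher in hindstomach (61.5%, against 17.5% of all genes) and 1 lower (7.69%, near 8.10%), with a median of 3.62. Fewer were called higher without intestinal replicate 1. The abundant keratins of simple epithelium were not called: Krt8 was at 2738 and 2673 CPM against 3516 and 3297 CPM and Krt19 at 1441 and 1430 CPM against 1474 and 1477 CPM. Keratins of squamous epithelium led the list, with Krt13 at 31.2 and 35.4 CPM against 0 and 0.109 CPM, a ratio of 636 with an interval from 176 to 5259, and Krt4 at 85.6 and 75.7 CPM against 0.302 and 0.491 CPM (7.66 ± 0.87). Krt20, a keratin of mature villus cells, was the 1 called lower, at 14.5 and 11.2 CPM against 107 and 109 CPM (-3.07 ± 0.33). All 8 squamous forestomach markers, 4 of them keratins of this list, were called higher, with a median of 8.0, or 4.74 with bounds. They held 0.00844% and 0.0091% of the hindstomach counts, 0.000104% and 1.2e-05% of the intestinal counts and 0.378% and 0.304% of the E16 forestomach counts, and whether forestomach cells were present in the hindstomach samples was not tested.

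Of 24 claudins, cadherins and junction genes, 5 were called higher (20.8%, near the 17.5% of all genes) and 8 lower (33.3%, against 8.10%). Besides Cldn18, Cdh2, the neural and mesenchymal cadherin, was at 62.2 and 77.2 CPM against 2.21 and 7.37 CPM (3.87 ± 0.63), and Cldn6, a claudin of embryonic epithelium, at 65.5 and 59.9 CPM against 4.98 and 9.23 CPM (3.15 ± 0.26). Cdh17, the liver-intestine cadherin, was at 28 and 25.7 CPM against 989 and 936 CPM (-5.16 ± 0.93), Cldn2, a pore-forming claudin, at 34.7 and 31.8 CPM against 301 and 298 CPM (-3.17 ± 0.49) and Cldn15 at 6.04 and 12.5 CPM against 64.6 and 59.9 CPM (-2.74 ± 0.36). Cdh1, E-cadherin, was not called, at 509.6 and 483 CPM against 778 and 699 CPM (-0.57 ± 0.12).

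Hox genes, which record position along the body axis, were mostly not called. Of 35 tested, 8 were called higher (22.9%, against 17.5% of all genes) and 2 lower (5.71%, against 8.10%). Of the 39 listed genes, 16 were at 3 counts or fewer in each of the 4 libraries, 13 of them at 0 in all. Some of these were tested but had too few reads to be called, so the shares among detected Hox genes are larger. Among those called higher were Hoxd3 at 34.7 and 26.1 CPM against 1.66 and 0.873 CPM (4.58 ± 1.35), Hoxb4 at 4.26 and 5.18 CPM against 0.553 and 0.437 CPM (3.24 ± 0.57) and Hoxb5 at 31.4 and 29.3 CPM against 9.11 and 8.84 CPM (1.76 ± 0.42). The 2 called lower were Hoxa9, which was at 0 in both hindstomach libraries and at 1.21 and 0.437 CPM in small intestine, at least 6.24-fold lower, and Hoxa10 at 0 against 0.805 and 0.109 CPM, at least 3.47-fold lower. Leaving out hindstomach replicate 1 or intestinal replicate 2 left 5 called higher, and the 2 called lower became 1 without either hindstomach library and 0 without intestinal replicate 1 or in a fit with only the groups compared. Hoxd3 lost its call without hindstomach replicate 1 or either intestinal library. Gut mesenchyme expresses Hox genes too, and the part of its larger share in hindstomach was not tested.

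Most pancreatic genes were not called. Of 25, 8 were called higher (32%, against 17.5% of all genes) and 1 lower, between 3 and 5 higher with any one library left out, 13 with wild-type libraries only and 17 with only the groups compared. The 1 called lower was Zg16, a granule lectin at 6.88 and 13.6 CPM against 106 and 88.7 CPM, and it lost its call with any one library left out. Cela1, an elastase, was at 132 and 156 CPM against 38.2 and 39.9 CPM (1.88 ± 0.28), Cpa1, a carboxypeptidase, at 442 and 520.4 CPM against 135 and 106 CPM (2.00 ± 0.65), and Ptf1a, the factor of acinar fate, at 9.81 and 15.9 CPM against 1.81 and 1.69 CPM (2.87 ± 1.05). The 2 insulin genes were uneven between the hindstomach libraries, with Ins2 at 53 and 5.7 CPM against 0.403 and 0.546 CPM and Ins1 at 12.5 and 0 CPM against 0 in both intestinal libraries, and both lost the call without that replicate or intestinal replicate 1. Nkx6-1, a beta cell factor, was at 3.15 and 4.7 CPM against 0 in both intestinal libraries, at least 24.9-fold higher. The most abundant members, Pnliprp1 at 2542 and 2678 CPM against 748 and 716 CPM (1.83 ± 1.00) and Ctrb1 at 954 and 1106 CPM against 339 and 333 CPM (1.62 ± 0.97), were not called, and both organs carried them. Whether pancreatic cells were carried over at dissection was not tested.

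The same comparison at earlier stages placed these differences in time, again with 2 libraries per organ, and with the cells of the E12 and E14 intestine labelled as midgut epithelium. At E12, 1599 genes were called between hindstomach and midgut (9.28%), and at E14 1178 (6.83%), against 4422 at E16. Of the 3025 genes called higher at E16, 401 were called higher and 103 lower at E14, and of the 1397 called lower, 254 were called lower and 29 higher. Cdx2 was at 116 and 160.2 CPM in hindstomach and 153 and 115 CPM in midgut at E12, and at 12.7 and 6.2 CPM against 123 and 152 CPM at E14. At E12 the organs overlapped for Cdx2, and from E14 they were apart. Sox2 was at 20.6 and 9.07 CPM against 6.63 and 3.41 CPM at E12 and 92.3 and 68.2 CPM against 0.122 and 0.0394 CPM at E14.

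**Figure D5:**
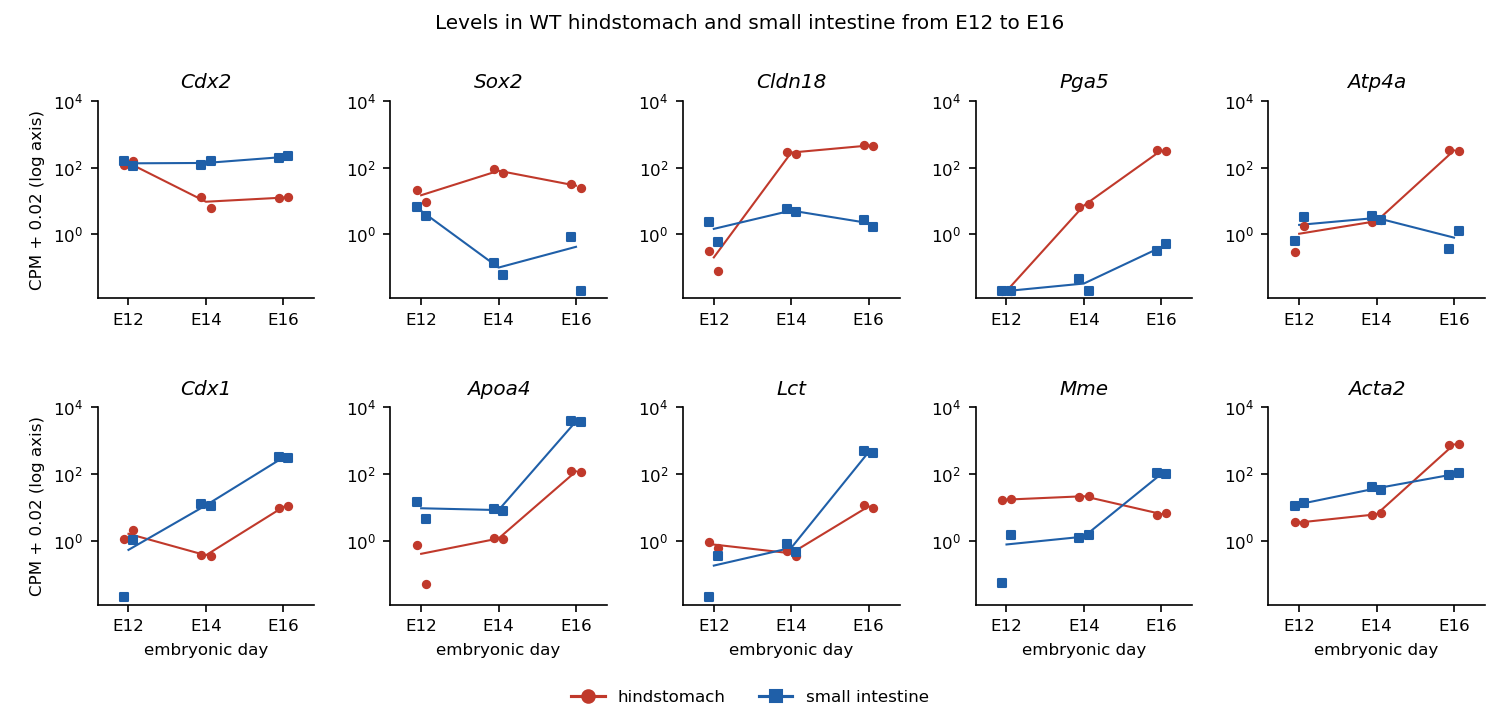
CPM plus 0.02 on a logarithmic axis at E12, E14 and E16 for 10 genes, in hindstomach (circles) and small intestine or midgut (squares), with lines through the mean of 2 libraries. Cdx2 overlaps between the organs at E12 and is apart at E14 and E16, while Apoa4 and Lct are low in both organs at E14 and high in small intestine at E16.

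Whether the difference between organs changed from E14 to E16 was tested as an interaction, and 2255 genes were called (13.1%), 1580 with a shift toward hindstomach (9.17%) and 675 toward small intestine (3.92%), around a median of 0.16. The count toward hindstomach was 1015 without E14 hindstomach replicate 2 and 1032 without replicate 1, and 2255 became 3813 when the fit held only the groups compared and 1450 after all libraries were thinned to the smallest. Brush border structure had 10 of 21 members called toward small intestine, the hydrolases 10 of 24, lipid absorption 15 of 30 and the transporters 12 of 30. Gastric mucous genes had 9 of 20 called toward hindstomach and 1 toward small intestine, and the chief and parietal list 2 and 3 of 17. Lct was at 0.459 and 0.338 CPM in hindstomach and 0.748 and 0.434 CPM in midgut at E14, and its interaction was -4.73 ± 0.77 (adjusted p = 0.00031). Apoa4 was at 1.2 and 1.09 CPM against 8.74 and 7.73 CPM at E14, and its interaction was not called (-2.13 ± 0.98, adjusted p = 0.16). Cdx2 had an interaction of -0.18 ± 0.41 (adjusted p = 0.85).

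Among acid and pepsinogen genes, Atp4a and Pgc were the 2 called toward hindstomach in the interaction, while 3 other members of that list were called toward small intestine. Atp4a was at 2.29 and 2.63 CPM in hindstomach and 3.52 and 2.64 CPM in midgut at E14, and its interaction was 9.08 ± 0.96 (adjusted p = 3e-06). Pgc was at 5.89 and 7.75 CPM against 3.7 and 3.87 CPM at E14 (8.07 ± 0.58, adjusted p = 4.9e-08). Cldn18 was already at 300.3 and 262 CPM against 5.7 and 4.58 CPM at E14. Mme, the peptidase neprilysin, changed sides: it was at 20.4 and 22.5 CPM in hindstomach and 1.18 and 1.42 CPM in midgut at E14 and at 5.72 and 6.79 CPM and 104 and 96.3 CPM at E16 (-8.07 ± 0.94, adjusted p = 8.7e-06). Ms4a8a, a membrane protein of the same family as B cell antigens, did likewise, from 18.9 and 17.1 CPM against 0.272 and 0.197 CPM to 3.82 and 3.78 CPM against 26.9 and 21.1 CPM (-8.80 ± 0.41). Slc6a19, the neutral amino acid carrier, was at 0.0706 and 0.263 CPM and 0 and 0.0394 CPM at E14 and at 3.86 and 1.87 CPM and 105 and 98.1 CPM at E16.

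Non-epithelial markers shifted over the same interval. Of 16 mesenchymal markers, 14 were called toward hindstomach in the interaction, where 9.17% of all tested genes were. Their share was 0.0173% and 0.0187% in hindstomach against 0.0443% and 0.0512% in midgut at E14, the opposite order to E16. Acta2 was at 5.68 and 6.62 CPM against 40.8 and 33.4 CPM at E14. Immune markers, with 7 of 10 called toward hindstomach (against the same 9.17%), took 0.0013% and 0.00128% against 0.0107% and 0.011% at E14. Tbx3, a T-box factor, was at 4.2 and 4.4 CPM against 52.4 and 60.5 CPM at E14 and at 116 and 95.5 CPM against 56.7 and 68 CPM at E16 (4.48 ± 0.33, adjusted p = 3.1e-08). The part of these cells in the 1580 genes was not tested.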

How the data were processed

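The files of the 4 libraries are part of a table of counts, whole numbers of reads per gene, that the authors deposited without normalization. Per the submitters' processing notes, tools of the series include STAR 2.5.3a, HTSeq, Bowtie2 and MACS2, with build mm9. The annotation and the strand setting of the counting are not given in the sources used here, so overlapping and antisense genes cannot be told apart. The table held 24015 genes. Its 2 columns of no sample, 2 nameless lines and 4 adult columns were not used. The chromatin samples of the series were not analysed here.

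In R 4.3.3, edgeR 4.0.16 (with limma 3.58.1) filtered genes with filterByExpr (minimum count 10), scaled libraries by TMM and fitted glmQLFit and glmQLFTest to 27 embryonic libraries in 13 groups (7 of the libraries Cdx2-/-), which share one estimate of the spread. Each standard error was derived as the fold change (log2) over the root of the F statistic. The scripts were tested on simulated data, with changes set in genes of higher counts. The test called 25 of 100 genes changed 2-fold, the size of the fold minimum, and 69 of 100 changed 4-fold. It made 1 false call among 16734 genes tested, so a gene that was not called may still differ. DESeq2 1.42.0 and the other alternatives are given in the closing section. Depth ranged from 16685602 to 18956478 counts in the 4 libraries compared and from 5970227 to 62463167 over the 27. Replicates differed by more than sampling noise (chi-square per degree of freedom 11.02 in hindstomach and 9.194 in small intestine).

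Groups came from the labels. Members and lists were chosen with earlier results of these data known. By rule, the text names Cdx2 and Sox2, in each list the 3 called genes with the largest log2 fold change per direction and the 2 most abundant genes not called, and outside the lists the 10 largest per direction with an average log2 CPM not under 2 and the 5 largest with one not under 7, and the 5 largest interactions per direction. Some genes that the rule picks are not reported here, some picks are not described, and other genes named were chosen after their values were seen. Promoters came from RefSeq, and Muc5ac, Psca, Dpcr1, Atp4b, Gif and Cdx1 were not matched. Same-numbered libraries were checked for pairing.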

Additional observations from a re-analysis of the deposited data

Results flagged for a closer look

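The difference between hindstomach and small intestine was not the same at E16 as at E14 for 2255 genes by the interaction test of edgeR, 1580 with a shift toward hindstomach and 675 toward small intestine. The following values are interactions on the log2 scale, picked out because the test of the difference between the stages passed.

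Ltf, lactoferrin, had the largest value at 12.75, and Cpa3 (9.26) and Cma1 (9.0) encode proteases of mast cells. Tlx2, a homeobox gene of enteric neurons, had a value of 9.02. These 4 genes were at 0 in both E14 hindstomach libraries, so the fitted values are no bounds, and in E14 midgut Ltf was at 0.694 and 0.434 CPM, Cpa3 at 0.599 and 0.513 CPM, Cma1 at 0.34 and 0.316 CPM and Tlx2 at 0.966 and 0.434 CPM. At E16 Ltf was at 163 and 204 CPM in hindstomach and 2.31 and 3.93 CPM in small intestine, Cpa3 at 26.5 and 46.6 CPM and 4.08 and 9.01 CPM, Cma1 at 11.8 and 24.8 CPM and 0.855 and 3.77 CPM and Tlx2 at 19.7 and 14.1 CPM and 4.98 and 4.09 CPM. The Tlx2 call was lost without any one of several libraries (either E16 intestinal library, either E14 hindstomach library or E14 intestinal replicate 1), and the Ltf and Cma1 calls were lost after thinning to the smallest library. In hindstomach, immune markers held 0.0013% and 0.00128% of the counts at E14 and 0.125% and 0.147% at E16, neural markers 0.00426% and 0.00427% at E14 and 0.0855% and 0.0848% at E16, and their part was not tested.

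Atp4a, the proton pump subunit, had 9.08 and kept its call under the alternatives run. Ms4a8a had -8.80, Slc6a19 -8.61, Mme -8.07 and Slc34a2 -7.54, all toward small intestine. The Slc6a19 call was lost without E14 hindstomach replicate 2, and the Slc34a2 call in DESeq2 and without most single libraries. Sox2 had -3.49, from a difference between organs that was larger at E14, and the value turned to 2.87 (adjusted p = 0.693) without E16 small intestine replicate 1. Sox2 was at 0 in the intestinal library that then remained, so this fitted value is no bound.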

How the results depend on the processing

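For the comparison at E16, between 3370 and 3639 genes were called when a single library was left out, 2130 to 2413 higher and 1191 to 1273 lower, where 4422, 3025 and 1397 were reported (the remaining library of that organ is assumed to vary like the other groups). Without a fold change minimum 6657 genes passed, 2884 of them lower, and 56.7% were then higher, against 68.4% as reported. DESeq2 called 4464 genes, and its size factors in edgeR called 4428, sharing 3013 of 3020 higher and 1396 of 1408 lower calls with the reported set. Scaling by library totals alone, chosen after seeing the data, moved the median of all genes from 0.184 to 0.341 and the share of calls that were higher to 75.2%, and upper-quartile factors, chosen likewise, gave 70.4%.

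The interaction gave 1559 to 1871 calls with one library left out, 1015 to 1270 toward hindstomach and 527 to 601 toward small intestine. With only the groups compared it gave 3813 (2528 and 1285), at an adjusted p under 0.01 it gave 1393 (925 toward hindstomach), after thinning 1450 (922 toward hindstomach), and without a fold minimum 1045 toward small intestine. Slc36a1 turned to -3.26 after thinning and Sox2 to 2.87 without E16 small intestine replicate 1, within a range from -4.70 to 2.87 over the libraries left out. The cause was not tested.

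Same-numbered libraries share only a number, with a correlation of their deviations of 0.0162 at E16 and 0.165 at E14 over 17239 genes. The fit with the replicate number as a block called 4332 genes (2950 higher, 1382 lower) and 1998 in the interaction (1379 and 619).

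Searching promoters on the gene's own strand only gave, for genes called higher and lower, 0.882% and 0.954% for Cdx, 0.139% and 1.05% for Hnf4, 0.232% and 1.15% for Hnf1, 3.2% and 5.92% for Gata, 0.975% and 1.24% for Sox and 1.44% and 1.05% for Foxa, fewer by construction. For the counts of the gene lists, 631 values over all alternatives stayed within 1.5 times the reported count and 73 did not. The pancreas count rose to 13 with wild-type libraries only and to 17 with only the groups compared. For all tested members of the gene lists and marker lists and the genes picked by rule, 8952 values at E16 kept their side of the threshold. A call was lost in 292 values and gained in 165. Genes with a few reads per library are limited by depth.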

Other observations

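Mucosal defence genes were split. Of 21 tested, 7 were called higher in hindstomach (33.3%, against 17.5% of all genes) and 4 lower (19%, against 8.10%), with a median of 0.21. Gsdmc2, a gasdermin of gut epithelium, was at 64.9 and 64.3 CPM in hindstomach and 0 and 0.437 CPM in small intestine (log2 fold change 8.22 ± 0.94), and its relatives Gsdmc4 and Gsdmc were called higher too. Lcn2, an iron-trapping defence protein, was at 61.5 and 75.3 CPM against 2.92 and 2.62 CPM (4.62 ± 1.11). Lyz2, a lysozyme of myeloid cells that is also an immune marker, was at 388 and 496 CPM against 54.5 and 55.5 CPM (3.01 ± 0.74). Dmbt1, a scavenger protein of mucus, was at 371 and 322 CPM against 1670 and 1402 CPM (-2.15 ± 0.20) and Pigr, the antibody transporter, at 1.64 and 0.304 CPM against 19.7 and 25.3 CPM (-4.53 ± 1.01), both called lower.

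Of 30 genes of xenobiotic metabolism, 13 were called lower in hindstomach (43.3%, against 8.10% of all genes), with a median of -1.17. A further 5 were called higher (16.7%, near the 17.5% of all genes), and fewer without intestinal replicate 2. Ugt2b36, a glucuronosyltransferase, was at 2.22 and 1.18 CPM against 39.8 and 51.6 CPM (-4.75 ± 0.43), and Adh1, alcohol dehydrogenase, at 32.6 and 41.1 CPM against 376 and 366 CPM (-3.33 ± 0.57). Gsta4, a glutathione transferase, was called higher at 452 and 452 CPM against 40.4 and 38.8 CPM (3.51 ± 0.15). No gene of 31 in the cell cycle list was called by edgeR or DESeq2, with a median of -0.37, while 19 were lower and 2 higher at an unadjusted p under 0.05. Mki67, a marker of proliferating cells, was at 63.5 and 71.3 CPM against 70.2 and 65.6 CPM (-0.01 ± 0.19). 14 members passed the adjusted p alone as lower in hindstomach, among them Pcna, at 112 and 115 CPM against 174 and 184 CPM (-0.66 ± 0.10), and 1 was called lower without hindstomach replicate 2.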
